A study of Mus musculus with 5 samples.

Results

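Collagen chain genes were taken as every gene column of the deposited count tables whose whole name is Col, a number, a and a number, such as Col1a1. The rule found 44 genes of 26189, and all 44 had at least 1 molecule in the cells kept. The molecules come from 1 mouse sample of aortic arch, in which cells of 2 genotypes were told apart by sample tags and captured together for single-cell RNA sequencing. The other 4 samples of the series, bone-marrow-derived macrophages in culture, were not analysed here.

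The mice were female and are labelled 12 weeks old. They were C57BL/6J wild-type mice and C57BL/6N-Saa3tm1.1(KOMP)Vlcg/MbpMmucd mice, called Saa3-/- in the design text, which also calls the animals littermates. Saa3 encodes serum amyloid A3, an acute-phase apolipoprotein. All mice of both genotypes received 1 intraperitoneal dose of a viral vector and a Western diet for 18 weeks to induce atherosclerosis. The labelled age of 12 weeks is shorter than this diet, so both cannot describe the mice when the arches were taken. The arches were digested with enzymes, and live CD45-positive cells were sorted. CD45 is the leukocyte surface protein encoded by Ptprc, so fibroblasts and smooth muscle cells were outside the intended gate, and those measured here passed it all the same. How many mice went into each pool is not stated.

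Each genotype is 1 pool. The labels do not say which tag belongs to which genotype, and only the names of the deposited tables do. Saa3 itself did not bear the labels out: the pool labelled wild-type held 1079 Saa3 molecules (148 CPM, that is per 1000000 molecules counted in the cells concerned) and the pool labelled Saa3-/- held 1268 (242 CPM). A single fibroblast-gated cell held 799 of the latter, and 90.1 CPM remained without it. The pools are therefore called by their labels throughout. Where 2 values are joined by "and", the pool labelled wild-type comes first and the pool labelled Saa3-/- second. With 1 pool per label there is no replicate, so no p-value or standard error is given. All intervals are exact 95% intervals of counting error only.

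After removal of cells with over 25% mitochondrial molecules, 833 and 823 cells were left, with a median of 6415 and 4698 molecules per cell. The pools shared 0 cell barcodes. Cells were gated by 6 markers per type, none of them a collagen gene. A gate needed at least 2 molecules of at least 3 of the 6 markers, and at least 2 more such markers than any other type. The fibroblast gate (Pdgfra, Dcn, Lum, Dpt, Serpinf1, Mfap5) held 58 and 51 cells. The smooth muscle gate (Myh11, Acta2, Tagln, Cnn1, Mylk, Lmod1) held 102 and 61 cells. Macrophage gates held 255 and 179 cells, T cell gates 137 and 169, and B cell gates 41 and 96. The fibroblast markers summed to 22645 and 23831 CPM in the fibroblast gate. They summed to 1572 and 1182 in the smooth muscle gate and to 470 to 585 in the immune gates. Smooth muscle markers summed to 30023 and 28509 CPM in the smooth muscle gate and to 893 and 698 in the fibroblast gate. A Ptprc molecule was found in 53.4% and 41.2% of fibroblast-gated cells, in 37.3% and 36.1% of smooth-muscle-gated cells and in 96.9% and 91.6% of macrophage-gated cells. Markers of Schwann cells reached at most 31.9 CPM in the 2 gates and those of mesothelium at most 8.40, with Msln and Lrrn4 at 0.

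Collagens are triple helices of chains, each encoded by a gene of its own. Fibrillar chains (types I, II, III, V, XI, XXIV and XXVII) assemble into the cable-like fibrils that give the vessel wall its tensile strength. Type IV chains build the sheet of the basement membrane that surrounds smooth muscle cells and underlies the endothelium, and type VI chains form beaded filaments close to that sheet. Fibril-associated chains such as those of types IX, XII and XIV sit on fibril surfaces, and the multiplexins, types XV and XVIII, lie at basement membranes. In the artery, fibroblasts of the adventitia and smooth muscle cells of the media make most of this matrix, and smooth muscle cells of the plaque cap deposit fibrillar collagen.

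The stretches upstream of 4 members are shown as examples. Col1a1 and Col14a1, described below, had no promoter entry and could not be shown. Col3a1 and Col5a1 are fibrillar chains that were higher in fibroblasts, and Col10a1 and Col11a2 are cartilage chains. In 6 cells with cartilage markers lay 91.6% and 88.5% of the Col10a1 molecules and 33.3% and 86.8% of the Col11a2 molecules. Each run is the 250 bases before the annotated start, 5′ to 3′ on the strand of the gene, from RefSeq on GRCm38. Capitals mark TATAAA (the TATA box) and GGGCGG or its reverse complement CCGCCC (the GC box).
Col3a1 (chr1:45311288-45311537, plus strand): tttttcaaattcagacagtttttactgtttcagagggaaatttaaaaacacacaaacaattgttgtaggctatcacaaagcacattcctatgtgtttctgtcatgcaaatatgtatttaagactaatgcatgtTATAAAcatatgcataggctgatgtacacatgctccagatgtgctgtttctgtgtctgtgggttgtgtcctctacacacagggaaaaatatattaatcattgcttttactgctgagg
Col5a1 (chr2:27886175-27886424, plus strand): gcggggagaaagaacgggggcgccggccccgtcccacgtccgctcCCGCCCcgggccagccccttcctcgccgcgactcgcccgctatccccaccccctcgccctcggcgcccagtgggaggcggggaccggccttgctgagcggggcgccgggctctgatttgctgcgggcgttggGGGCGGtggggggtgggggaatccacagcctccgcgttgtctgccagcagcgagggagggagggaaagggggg
Col10a1 (chr10:34389731-34389980, plus strand): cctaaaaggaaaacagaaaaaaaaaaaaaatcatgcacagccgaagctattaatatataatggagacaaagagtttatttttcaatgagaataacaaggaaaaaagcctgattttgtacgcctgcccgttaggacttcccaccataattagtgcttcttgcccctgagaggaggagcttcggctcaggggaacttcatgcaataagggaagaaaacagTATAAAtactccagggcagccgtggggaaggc
Col11a2 (chr17:34038888-34039137, plus strand): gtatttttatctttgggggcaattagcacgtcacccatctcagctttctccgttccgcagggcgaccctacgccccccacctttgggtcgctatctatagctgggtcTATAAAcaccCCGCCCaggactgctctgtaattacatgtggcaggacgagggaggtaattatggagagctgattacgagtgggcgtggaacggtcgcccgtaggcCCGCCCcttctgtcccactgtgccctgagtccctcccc
Col3a1 has 1 TATAAA match in this window, 117 bases before the start, and Col10a1 has 1 closer to it, at 32 bases. Col5a1 has 2 matches of the GC box and no TATAAA. Col11a2 has 1 TATAAA match, 143 bases before the start, and 2 matches of the GC box. GC content ran from 35.2% in Col3a1 to 76.4% in Col5a1.

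RefSeq promoters, each 300 bases long from 250 before to 50 after the start, were found for 35 of the 44 members, 38 promoters in all. Both strands were searched. TATAAA stood in 13.2% of the member promoters and in 12.4% of all 32851 promoters. CCAAT, the CCAAT box, stood in 34.2% and 33.9%. GGGCGG stood in 57.9% of the member promoters and in 32.7% of all. TGACTCA, the AP-1 motif, stood in 2.63% and 4.46%. The GC box was thus the motif that differed most in frequency, and a match is a match of letters, not a measured binding site.

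Fibroblasts carried the most collagen RNA. Members summed to 20973 CPM (95% interval 20607 to 21344) and 20303 (19897 to 20714) in the fibroblast gate. In smooth muscle cells the sum was 8055 (7864 to 8249) and 7652 (7393 to 7917) CPM. Cell by cell, collagen made up a median of 1.69% and 1.64% of a fibroblast's molecules, from 0.416% to 5.78% in the pool labelled wild-type and from 0.391% to 5.07% in the pool labelled Saa3-/-. Smooth muscle cells had medians of 0.697% and 0.655%. Every fibroblast-gated and smooth-muscle-gated cell had at least 1 collagen molecule. So did most immune cells: 251 of 255 and 174 of 179 macrophages, 131 of 137 and 162 of 169 T cells, and 39 of 41 and 88 of 96 B cells. The median was 15 different chains per fibroblast in both pools and 13 and 12 per smooth muscle cell. It was 6 and 4 per macrophage, 3 in both pools per T cell and 3 and 2 per B cell. The single highest fibroblast held 7.28% and 10.4% of its gate's collagen molecules.

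**Figure D1:**
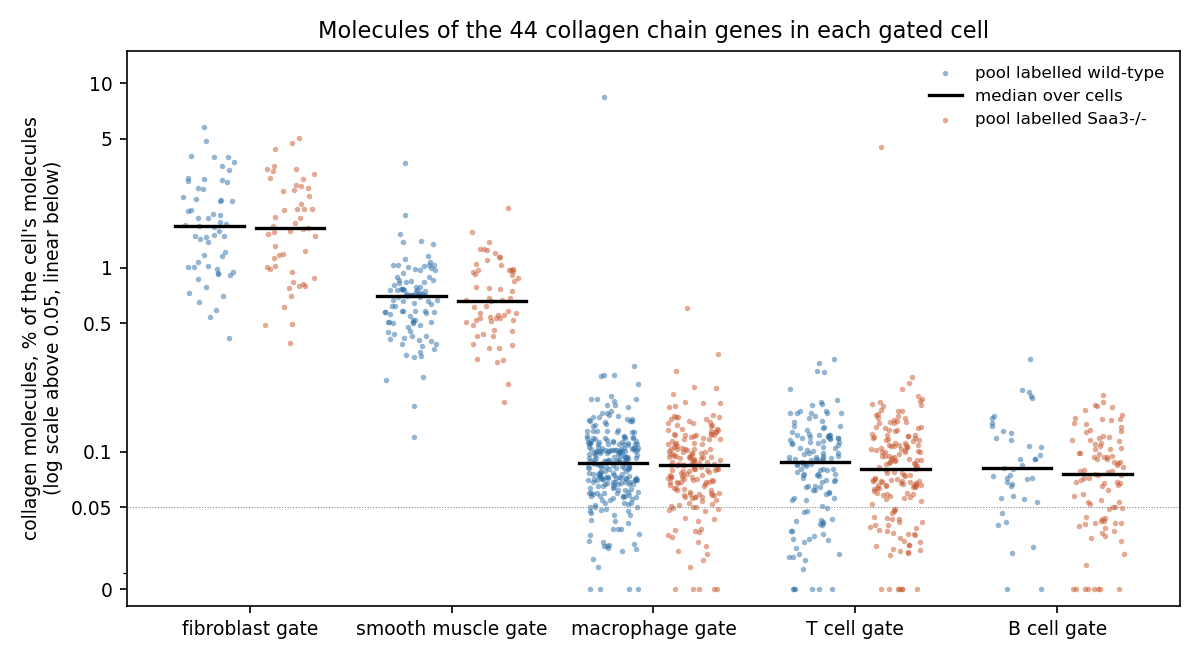
Share of each gated cell's molecules that came from the 44 collagen chain genes, in percent (log scale above 0.05, linear below); each point is 1 cell, colours are the 2 pools and black bars are medians. Fibroblast medians were 1.69% and 1.64%, smooth muscle medians 0.697% and 0.655%, and medians of the immune gates lay between 0.0756% and 0.0878%. Immune cells ran from 0 upward, with 1 macrophage-gated cell at 8.45%, 1 T-cell-gated cell at 4.49% and 1 macrophage-gated cell at 0.601% as the highest.

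A few chains made up most of the molecules. The 12 members with the most molecules over both stromal gates held 93.2% of them. 27 members had at least 20 molecules there, and the other 17 shared 114 molecules. Col1a1, Col1a2 and Col3a1 together gave 70.5% and 69.5% of the collagen molecules of fibroblasts and 50.3% and 54.0% of those of smooth muscle cells. By family, fibrillar chains gave 74.8% and 74.7% of fibroblast collagen but 56.8% and 60.2% in smooth muscle. Type IV chains gave 4.64% and 4.01% in fibroblasts and 16.6% and 16.2% in smooth muscle cells. The 2 multiplexins gave 3.28% and 3.91% in fibroblasts and 12.6% and 10.7% in smooth muscle. Type VI chains held a like share in both, 8.67% and 8.94% in fibroblasts and 9.21% and 8.82% in smooth muscle cells.

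**Figure D2:**
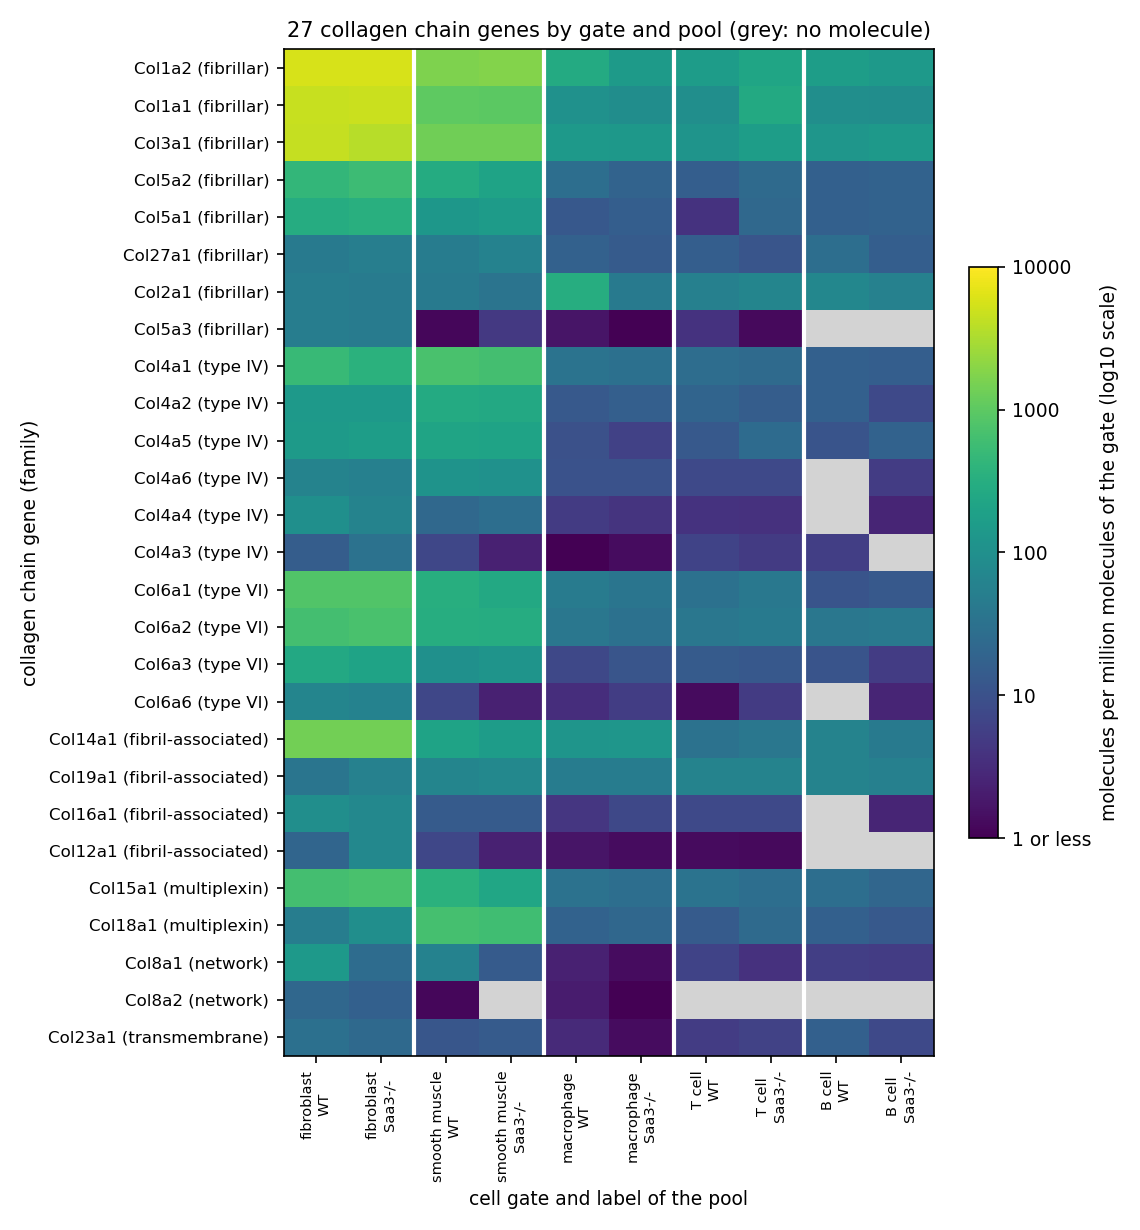
Level in CPM (colour, log scale) of the 27 collagen chain genes with at least 20 molecules over the fibroblast and smooth muscle gates, by gate and label of the pool; grey means no molecule. Fibrillar chains such as Col1a2 were brightest in fibroblasts and Col18a1 in smooth muscle cells. Most chains were dimmer in the immune columns, with Col2a1 and Col19a1 as exceptions.

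Fibroblasts and smooth muscle cells were then compared chain by chain within each pool. A gene was compared with at least 20 molecules over both gates in each pool, and called with a difference of 2-fold or more in the same direction in both pools, on a log2 scale with 0.5 molecule added. Of 22 members compared, 11 were called higher in fibroblasts, against 9.53% of all 6587 genes. 1 was called higher in smooth muscle cells, against 6.83% of all genes. The median log2 ratio of the 22 was 1.12 and 1.18, and that of all genes 0.03 and 0.06. The 22 had the same sign in both pools, 15 toward fibroblasts and 7 toward smooth muscle. For 18 of them the counting interval left out 0 in both pools. It included 0 in at least 1 pool for Col2a1, Col4a5, Col19a1 and Col27a1. The minimum was set on both gates together, so Col5a3, Col6a6, Col16a1 and Col4a4, with fewer than 20 molecules in smooth muscle cells, passed it through the gate in which they were higher. With a minimum of 50 molecules these 4 were not compared, and 7 of 17 members were called higher in fibroblasts. The share of all genes called at that minimum was not computed, so this count has no background beside it.

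**Figure D3:**
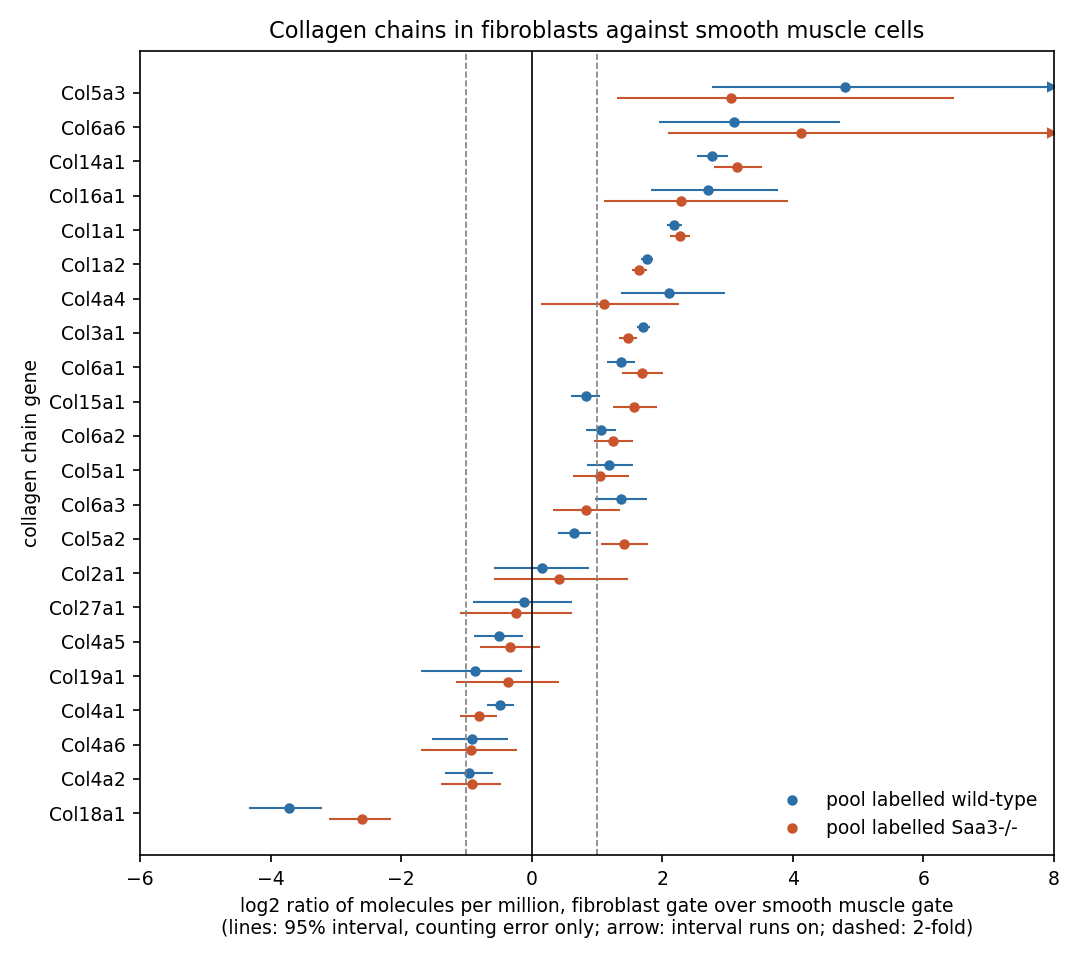
log2 ratio of CPM, fibroblast gate over smooth muscle gate, for the 22 collagen chain genes compared, in the 2 pools (colours); lines are exact 95% intervals of counting error and dashed lines mark 2-fold. By the mean of the 2 pools, Col5a3 and Col6a6 lie farthest right, with wide intervals. Col14a1, Col16a1 and Col1a1 follow, Col14a1 and Col1a1 with narrow ones. Col18a1 stands alone at the left at -3.72 and -2.60.

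Among the fibrillar chains, both chains of type I, the main fibril of adventitia and cap, were higher in fibroblasts. Col1a1 (chromosome 11, GRCm38 94936224 to 94953042) reached 4648 and 4703 CPM in fibroblasts and 1019 and 974 in smooth muscle cells. Its log2 ratio was 2.19 (2.08 to 2.30) and 2.27 (2.12 to 2.43). Col1a2 (chromosome 6, 4504814 to 4541544) reached 5726 and 5651 CPM against 1688 and 1806. Its log2 ratio of 1.76 (1.67 to 1.85) and 1.65 (1.53 to 1.76) was below that of Col1a1 in each pool. The counting intervals did not meet, but they leave out the spread between cells. In the pool labelled wild-type, 1 smooth muscle cell held 109 of the 857 Col1a1 molecules of its gate. Among the molecules counted, fibroblasts held 0.812 and 0.832 Col1a1 per Col1a2, and smooth muscle cells 0.604 and 0.539. Their longest annotated transcripts are of near-equal length, 5.93 and 5.35 kb.

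Col3a1 (chromosome 1, 45311538 to 45349706), whose type III homotrimer makes the thin fibrils of elastic vessels, reached 4401 and 3764 CPM in fibroblasts and 1345 and 1354 in smooth muscle. Its log2 ratio was 1.71 (1.61 to 1.81) and 1.48 (1.34 to 1.61). At full depth most stromal cells had these chains. Col1a1 was found in 100% of fibroblasts in both pools and in 90.2% of smooth muscle cells in both. Col3a1 was found in 96.6% and 100% of fibroblasts and in 96.1% and 98.4% of smooth muscle cells.

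Type V chains sit in the core of type I fibrils and govern their diameter. Col5a1 stood at 299 and 328 CPM in fibroblasts and 131 and 158 in smooth muscle (log2 1.19 and 1.05), just past the 2-fold limit. This call was lost under 6 of the alternatives in the choice of cells, their weight or the scale, with the second ratio down to 0.37 without cells with a Ptprc molecule. Col5a2, its partner chain, stood at 452 and 549 against 287 and 206 CPM. Its log2 ratio of 0.66 and 1.41 passed 2-fold in the pool labelled Saa3-/- alone, so it was not called. Col5a3, the rarer type V chain, had 29 and 22 molecules in fibroblasts, 8 and 9 of them in 1 cell each, and 1 and 2 in smooth muscle cells. Its log2 ratio was 4.79 (2.76 to 10.7) and 3.05 (1.31 to 6.47), and its call was lost with markers counted from 1 molecule, without cells with a Ptprc molecule and with at least 50 molecules. Col27a1, a fibrillar chain of cartilage, showed 43.7 and 51.1 CPM in fibroblasts and 47.6 and 60.3 in smooth muscle, with intervals of the ratio that included 0 in both pools.

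Type VI split the same way. Col6a1 (chromosome 10, 76708792 to 76726168) reached 835 and 828 CPM in fibroblasts against 323 and 255 in smooth muscle cells, a log2 ratio of 1.37 and 1.69. Col6a2, its neighbour on chromosome 10 (76595762 to 76623630), reached 640 and 705 against 307 and 297 CPM (log2 1.06 and 1.24). Col6a3, the longest of the 3 main chains, had 264 and 211 against 102 and 118 CPM, and its log2 ratio of 1.36 and 0.83 was not called. Col6a6, an alternative to Col6a3 in the filament, had 39 and 28 molecules in fibroblasts and 6 and 1 in smooth muscle cells (log2 3.10 and 4.13), and was called.

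Among the 12 most abundant members the widest ratio toward fibroblasts was that of a fibril-associated chain. Col14a1 (chromosome 15, 55307750 to 55520803), which bridges fibrils in the adventitia and other dense connective tissue, stood at 1427 and 1418 CPM in fibroblasts and 209 and 160 in smooth muscle cells. The log2 ratio was 2.77 (2.53 to 3.01) and 3.14 (2.79 to 3.53). It was found in 87.9% and 86.3% of fibroblasts and in 62.7% and 47.5% of smooth muscle cells. Col16a1, a minor chain of this family, followed it, at 95.7 and 72.4 against 14.3 and 13.9 CPM (log2 2.70 and 2.28). Col19a1 did not: it stood at 35.3 and 57.5 CPM in fibroblasts and 65.4 and 74.2 in smooth muscle cells, beside 61.9 and 59.0 in T and B cells and 48.3 and 47.6 in macrophages.

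Basement membrane chains went the other way. Col4a1, which with Col4a2 forms the common type IV network, stood at 502 and 360 CPM in fibroblasts and 701 and 630 in smooth muscle (log2 -0.48, interval -0.69 to -0.28, and -0.81, -1.10 to -0.53). Col4a2 stood at 144 and 138 against 281 and 262 CPM (log2 -0.95 and -0.92). Neither reached 2-fold, yet all 4 intervals lay below 0. The 2 genes lie head to head on chromosome 8, Col4a1 starting at 11312826 on the minus strand and Col4a2 at 11312805 on the plus strand, so that they overlap by 22 bases. How the authors' counting used strand is not stated, and 18 of the 44 members overlap an annotated gene on the opposite strand.

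The other type IV genes also lie in head-to-head pairs. Col4a5 and Col4a6, chains of the smooth muscle basement membrane, lie 1308 bases apart on the X chromosome. Col4a5 had 151 and 166 CPM in fibroblasts against 214 and 209 in smooth muscle, and Col4a6 had 60.5 and 55.4 against 115 and 107. Their log2 ratios were -0.50 and -0.33 for Col4a5 and -0.92 and -0.93 for Col4a6, both toward smooth muscle and neither called. The interval of Col4a5 included 0 in the pool labelled Saa3-/- (-0.79 to 0.12). Col4a3 and Col4a4, best known from the kidney filter, lie 71 bases apart on chromosome 1. Col4a4 went against the family, with 99.1 and 61.7 CPM in fibroblasts and 22.6 and 27.8 in smooth muscle cells. It was called higher in fibroblasts (log2 2.11 and 1.12). Col4a3 had 9 and 15 molecules in fibroblasts and 6 and 1 in smooth muscle, too few to be compared.

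The multiplexins parted from each other. Col18a1 (chromosome 10, 77052178 to 77166548), whose C-terminal fragment is endostatin, was the only member called higher in smooth muscle cells. It stood at 653 (599 to 710) and 587 (516 to 663) CPM there and at 48.7 (32.6 to 69.9) and 95.8 (69.9 to 128) in fibroblasts. The log2 ratio was -3.72 (-4.34 to -3.21) and -2.60 (-3.11 to -2.15). A molecule was found in 89.2% and 91.8% of smooth muscle cells and in 37.9% and 37.3% of fibroblasts. A single fibroblast of the pool labelled Saa3-/- held 18 of that gate's 45 molecules, and 60.4 CPM remained without it. Col15a1, its closest relative, leaned to fibroblasts at 640 and 698 against 360 and 234 CPM. Its log2 ratio of 0.83 and 1.57 was not called.

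Pericyte markers did not move as one list. 3 of 3 pericyte markers measured were detected in both gates, summing to 863 and 926 CPM in fibroblasts and 458 and 603 in smooth muscle cells. Rgs5 stood at 21.8 and 10.6 CPM in fibroblasts and 85.6 and 199 in smooth muscle. The other two were higher in fibroblasts, Kcnj8 at 70.5 and 147 against 23.8 and 11.6 CPM and Abcc9 at 771 and 769 against 349 and 392. Their part in the type IV and Col18a1 values was not tested.

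As an alternative, chains were ordered against each other per kb of the longest annotated transcript. Each molecule was counted once by its identifier, so the undivided order is the main one. Division by length can itself favour short transcripts. In fibroblasts of the pool labelled wild-type the order began with Col1a2 (1071 CPM per kb), Col3a1 (791) and Col1a1 (784), and Col14a1 came next at 221. Col3a1 and Col1a1 traded places in the pool labelled Saa3-/-, at 677 and 793. Smooth muscle cells had the order Col1a2 (316 and 338 CPM per kb), Col3a1 (242 and 243) and Col1a1 (172 and 164). Col18a1 came next at 117 and 105, ahead of Col4a1 at 106 and 95.3. The Col18a1 place per kb was 4 in both pools of smooth muscle cells and 19 and 14 in fibroblasts. Undivided, its place was 5 in both pools of smooth muscle cells, after Col4a1, and 20 and 14 in fibroblasts.

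Levels of some chains varied together from cell to cell, within 1 protein and between proteins. Spearman's rho of per-cell levels of Col1a1 and Col1a2 was 0.81 over 58 fibroblasts and 0.85 over 51, and 0.46 and 0.51 over 102 and 61 smooth muscle cells. Col6a1 and Col6a2 gave 0.53 and 0.55 in fibroblasts and 0.29 and 0.21 in smooth muscle cells. Of chains from different proteins, Col1a1 and Col3a1 gave 0.70 and 0.67 in fibroblasts and Col1a2 and Col3a1 0.58 and 0.66. Col1a1 and Col15a1 gave 0.34 and 0.26 in smooth muscle cells. Col4a1 and Col4a2 gave 0.48 and 0.17 in fibroblasts and 0.29 and 0.31 in smooth muscle cells. Col1a1 and Col4a1, a fibril and a basement membrane chain, gave 0.32 and 0.06 in fibroblasts. These describe cells that share 1 library and differ in depth, and low counts pull the values toward 0.

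The machinery that processes collagen was followed with 5 gene lists, whose counts stand beside the 9.53% and 6.83% of all genes called in the 2 directions of this comparison. Of 4 propeptide removal genes compared (8 listed), all 4 were called higher in fibroblasts, with a median log2 ratio of 2.38 and 3.07. They included Pcolce, the enhancer of the C-propeptide protease, at 883 and 920 against 46.4 and 58.0 CPM. The others were its relative Pcolce2, the C-proteinase Bmp1 and the N-proteinase Adamts2, at 455 and 458 against 118 and 99.7 CPM. In the pool labelled Saa3-/-, Pcolce2 had 240 molecules in fibroblasts and 9 in smooth muscle cells. It thus passed the minimum there through the gate in which it was higher. Of 15 of 18 genes for modification in the endoplasmic reticulum, 2 were called higher in fibroblasts and 13 were not called, with a median of 0.53 and 0.40. A count of 2 of 15 is close to the share over all genes. Those called were P4ha1, a prolyl hydroxylase, and Serpinh1, the collagen chaperone HSP47, at 920 and 920 against 431 and 394 CPM.

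Among 4 of 5 crosslinking genes compared, Loxl2 alone was called higher in fibroblasts. In the pool labelled Saa3-/-, Loxl2 had 55 molecules there and 10 in smooth muscle cells, so it passed the minimum through the higher gate. Lox, the classical lysyl oxidase, leaned to smooth muscle at 197 and 181 CPM against 323 and 255 (log2 -0.72 and -0.49), while Loxl1 had 448 and 360 against 220 and 197 (log2 1.03 and 0.86). Of 6 fibril-binding proteoglycans, Fmod and Vcan were called higher in fibroblasts and 4 were not called. Fmod had 79 and 64 molecules in fibroblasts and 3 and 2 in smooth muscle cells, so it too passed the minimum through the higher gate. Biglycan, Bgn, was level at 4704 and 4422 against 4839 and 4699 CPM. Of 5 of 10 receptor genes, Ddr2, the fibrillar collagen receptor kinase, and Mrc2 were called higher in fibroblasts. Itga1 and Itgb1, which pair as a collagen-binding integrin, were called higher in smooth muscle cells. Ddr2 only just passed the 2-fold limit, with a log2 ratio of 1.001 (0.73 to 1.27) and 1.085 (0.74 to 1.45). Calls of the listed genes were not recomputed under other settings. Itga1 stood at 40.3 and 57.5 CPM in fibroblasts and 222 and 220 in smooth muscle.

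Between the pools, fibroblast collagen was close to level. The log2 ratio of the summed members, with the pool labelled wild-type as the reference, was -0.05 (-0.09 to -0.01) in fibroblasts and -0.07 (-0.13 to -0.01) in smooth muscle cells. Both turned positive with markers counted from 1 molecule, with a lead of 1 marker and without cells with a Ptprc molecule. Among 27 members with at least 20 molecules over both pools in fibroblasts, 3 differed 2-fold or more, against 6.87% of all 7280 genes. In smooth muscle cells 1 of 20 members did, against 6.31% of all 7538 genes. The median over members was -0.02 in fibroblasts and -0.08 in smooth muscle cells, beside 0.03 and 0.01 over all genes. Counting intervals included 0 for 20 of the 27 and 16 of the 20.

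**Figure D4:**
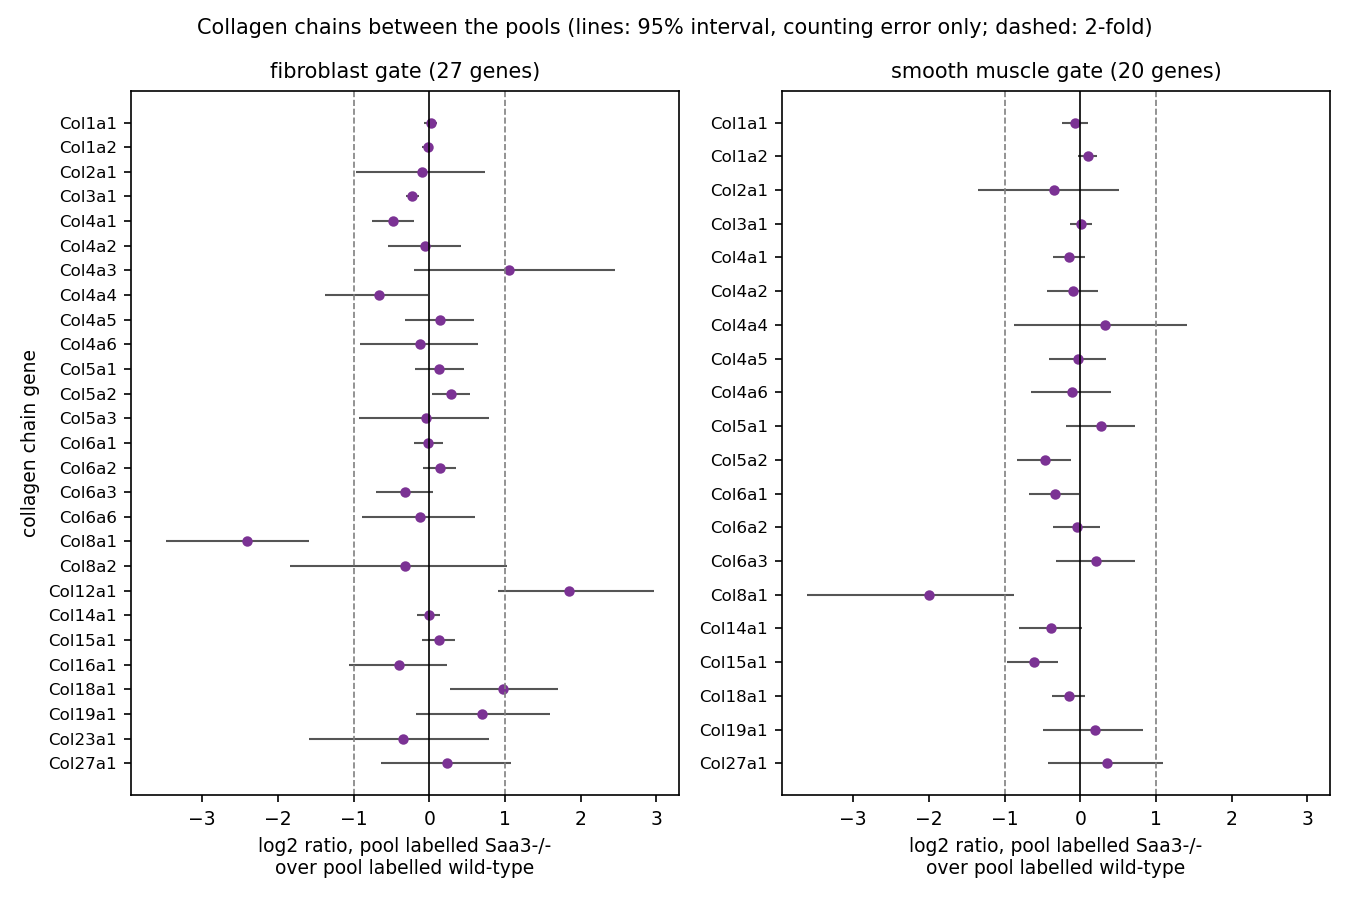
log2 ratio of CPM between the pools (above 0: higher in the one labelled Saa3-/-) for 27 collagen chain genes in fibroblasts (left) and 20 in smooth muscle cells (right); lines are exact 95% intervals of counting error, dashed lines 2-fold. Most points sit within 2-fold of 0, and Col8a1 lies at -2.42 and -1.995.

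Among the 12 most abundant chains the pools were nearest in Col14a1, Col6a1, Col1a1 and Col1a2, with log2 ratios of -0.01, -0.01, 0.02 and -0.02 in fibroblasts. Col3a1 had a log2 ratio of -0.23 (-0.31 to -0.14) and Col4a1 one of -0.48 (-0.76 to -0.20), both lower in the pool labelled Saa3-/- by less than 2-fold. Col4a1 went from 502 to 360 CPM. Others were higher there. Col18a1 had the widest gap of the 12 in fibroblasts, at 48.7 and 95.8 CPM (log2 0.97, 0.27 to 1.70), with 18 of its 45 molecules in the 1 cell described above, and it passed 2-fold with at least 4 of 6 markers. Col5a2 had a log2 ratio of 0.28 (0.03 to 0.53) in fibroblasts and of -0.47 (-0.84 to -0.12) in smooth muscle cells. In smooth muscle cells Col15a1 showed the widest gap short of 2-fold, at 360 and 234 CPM (log2 -0.62, -0.96 to -0.29).

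The chains past 2-fold rested on few molecules or on 1 cell. Col8a1, a short-chain network collagen of vascular cells, had 84 and 12 molecules in fibroblasts (log2 -2.42) and 50 and 6 in smooth muscle (log2 -1.995). A single fibroblast held 66 of the 84, and a single smooth muscle cell 37 of the 50. Without the highest cell of each pool, Col8a1 stood at 31.1 and 17.7 CPM in fibroblasts and 16.1 and 6.98 in smooth muscle cells. Col12a1, a fibril-associated chain of tendon-like matrix, had 12 and 35 fibroblast molecules (log2 1.85, 0.91 to 2.97), with 6 and 19 of them in 1 cell each. Col4a3 had 9 and 15 (log2 1.05, -0.21 to 2.45).

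Immune cells carried a low and even level of the same chains. T and B cells together held 852 (794 to 912) and 1057 (999 to 1117) CPM of collagen, and macrophages 1568 and 894. Per cell the medians were alike, 0.0873% and 0.0849% in macrophages, 0.0878% and 0.0803% in T cells and 0.0817% and 0.0756% in B cells. Single cells set 2 of the sums apart. A macrophage-gated cell of the pool labelled wild-type held 2029 collagen molecules and cartilage markers, described further on, and without it macrophages stood at 900 CPM. A T-cell-gated cell of the pool labelled Saa3-/- held 270 collagen molecules among 6008, 136 of them Col1a1, and without it T cells fell from 1190 to 859 CPM.

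Col1a2 is an example of this level. It stood at 164 (137 to 196) and 226 (194 to 262) CPM in T cells, the second 169 without the T-cell-gated cell just described, 166 (112 to 237) and 147 (112 to 191) in B cells and 160 and 154 in macrophages, the first without the cell with cartilage markers. In T and B cells this came to 2.88% and 3.55% of its fibroblast level, with that cell included. Over the 19 members compared in immune cells, 14 stood below 15% of their fibroblast level in both pools, the highest of them at 13.1% and 13.7%. A Col1a2 molecule was found in 55.5% and 53.8% of T cells, and in 31.9% and 26.6% once cells were thinned to 2000 molecules. Macrophages thinned in the same way gave 29.9% and 30.1% and B cells 26.8% and 29.7%, and the counting intervals of the 3 immune gates overlapped in each pool. The part of free RNA in the suspension was not tested.

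The other 5 of the 19 stood higher relative to fibroblasts. Col18a1, high in smooth muscle, stood in T and B cells at 30.2% and 21.1% of its fibroblast level, and Col27a1 at 40.8% and 24.7%. Col2a1 and Col19a1 stood above it, at 117% and 133% and at 175% and 103%, so neither was raised in fibroblasts over immune cells. Col10a1 rested on few molecules, 9 and 5 in T and B cells.

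Col14a1 stood out of this even level. Macrophages held 363 and 187 Col14a1 molecules, 121 (109 to 134) and 125 (108 to 145) CPM. T cells stood at 32.4 (20.9 to 47.8) and 38.8 (26.3 to 55.0) and B cells at 60.9 (30.4 to 109) and 43.9 (25.6 to 70.3). The log2 ratio of macrophages over T and B cells was 1.66 (1.18 to 2.22) and 1.62 (1.17 to 2.12). No single cell held the difference: the highest macrophages had 16 and 13 molecules, and 125 of 255 and 70 of 179 had at least 1. Thinned to 2000 molecules, 19.1% and 18.8% of macrophages had a Col14a1 molecule, against 5.93% and 8.88% of T cells. The fibroblast gate markers, which the gating rule itself held down in immune cells, stood at 585 and 508 CPM in macrophages, 511 and 528 in T cells and 470 and 470 in B cells. The part of fibroblast RNA in the Col14a1 values was not tested.

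Of 19 members compared between macrophages and T and B cells, 2 were called higher in macrophages in both pools (Col14a1 and Col10a1), against 11% of all 9820 genes. A count of 2 of 19 is close to that share. Calls in the other direction were not counted. Col4a5 was lower in macrophages of the pool labelled Saa3-/-, with 9 against 27 molecules (log2 -1.86, -3.19 to -0.78). In the pool labelled wild-type its log2 ratio was -0.42 (-1.40 to 0.72). Col10a1 came to a log2 ratio of -0.11 in the pool labelled wild-type without the cell with cartilage markers, and had 15 against 5 molecules in the other pool. The median log2 ratio of all genes here was -0.35 and -0.30, and with it set to 0 the Col14a1 ratio was 2.01 and 1.92. This comparison was added after its values were seen.

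The macrophages differed among themselves in Col14a1. Those with at least 2 of 4 markers of resident-type vascular macrophages (Lyve1, Folr2, F13a1, Cd163, picked after the values were seen) stood at 75.0 (60.4 to 91.9) and 92.5 (64.4 to 129) CPM. The others stood at 154 (136 to 174) and 137 (116 to 160). Col1a2 stood at 163 and 188 in the first set and at 157 and 142 in the second. Col14a1 CPM was thus lower in the resident-type cells of both pools, but the intervals overlapped in the pool labelled Saa3-/-, where 1 cell held 13 of their 35 molecules. The share of cells with a Col14a1 molecule was 48.9% and 26.5% in the first set and 48.8% and 43.8% in the second.

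Several cartilage chains were held largely by very few cells. Cartilage markers (Acan, Sox9, Comp, Chad, Matn3) were present with at least 2 molecules of at least 4 of 5 genes in 2 and 4 cells, a rule set after the values were seen. These 6 of 1656 cells held 77.3% and 89.7% of all Col2a1 molecules, the chain of the cartilage fibril. They held 91.6% and 88.5% of Col10a1, the network chain of hypertrophic cartilage, and 64.1% and 92.9% of Col11a1, a core chain of that fibril. For the other chains the pools differed. Of Col9a1, 1 of 12 molecules lay in these cells in the pool labelled wild-type and 121 of 132 in the pool labelled Saa3-/-. The shares were 24.1% and 83.6% for Col9a2, 39.3% and 90.1% for Col9a3, 33.3% and 86.8% for Col11a2 and 4.90% and 61.5% for Col27a1.

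**Figure D5:**
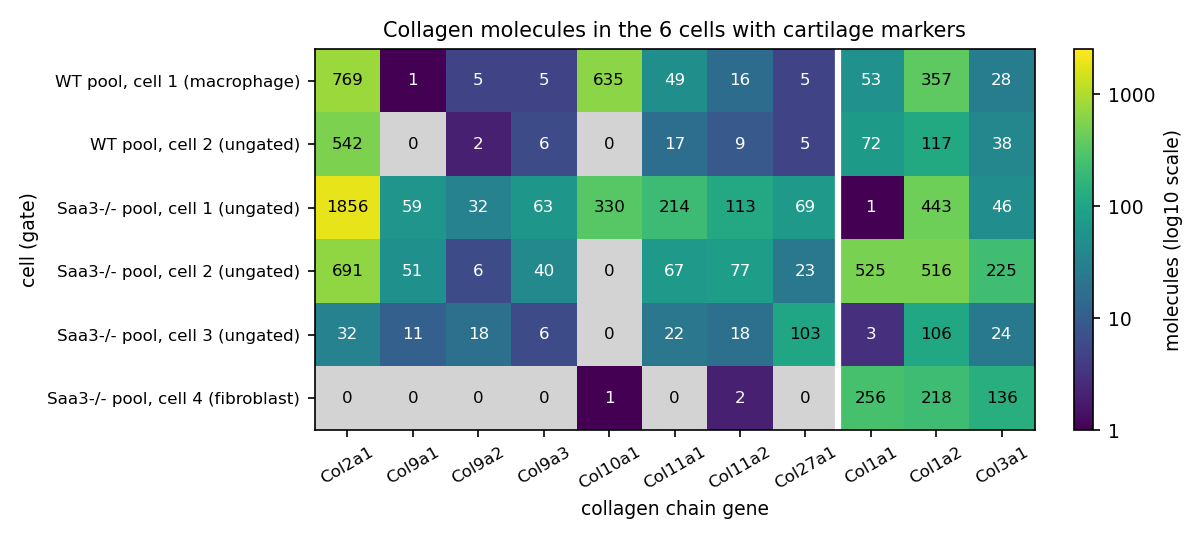
Molecules of 8 cartilage chains and, right of the white line, of the 3 main fibrillar chains in the 6 cells with at least 4 of 5 cartilage markers; colour is on a log scale, numbers are molecules and grey is 0. Col2a1 ranges from 0 to 1856, and Col10a1 is high in 2 cells, at 635 and 330.

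The 6 cells were not alike. Cell 1 of the pool labelled wild-type, in the macrophage gate, held 769 Col2a1, 635 Col10a1 and 1091 Chad molecules beside 47 of the macrophage gene C1qb. Cell 2 of that pool held 542 Col2a1 molecules and 0 Col10a1. In the pool labelled Saa3-/-, cell 1 held 1856 Col2a1, 330 Col10a1 and 214 Col11a1 molecules but 1 of Col1a1. Cell 2 held 691 Col2a1 and 525 Col1a1, and cell 3 held 32 Col2a1 but 103 Col27a1 molecules. Cell 4, in the fibroblast gate, had 0 Col2a1 and 256 Col1a1 molecules, a fibrillar profile despite its Comp (58) and Acan (47). These cells were deep, at 9581 to 40833 molecules, and doublets were not called.

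Outside these cells Col2a1 was found in every gate. It stood at 50.4 and 49.2 CPM in fibroblasts, 45.2 and 34.8 in smooth muscle cells, 50.7 and 42.9 in macrophages, 55.7 and 65.0 in T cells and 71.9 and 56.8 in B cells. The counting intervals overlapped within each pool, and ratios between these gates were not computed. Col9a1, Col9a2, Col9a3 and Col11a1 stood at 8.40 CPM or less in fibroblasts and smooth muscle cells.

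The members not yet described were scarce. Col8a2, the partner of Col8a1, had 13 and 8 fibroblast molecules against 1 and 0 in smooth muscle, and Col23a1, a transmembrane chain, 18 and 11 against 10 and 6. Col6a5 had 9 and 6 against 0 and 1. Col11a2, Col20a1, Col22a1, Col24a1, Col25a1, Col26a1, Col28a1, Col6a4, Col7a1, Col13a1 and Col17a1 had at most 7 molecules in any stromal gate of a pool. Col17a1, a hemidesmosome chain of epithelium, had 1 molecule in all cells together, and Col7a1, of the anchoring fibrils of skin, had 5.

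Cells that entered no gate, 236 and 265, held 6967 and 13017 collagen molecules, 13% and 27.7% of them in 1 cell each. They entered no comparison. Leaving out every cell with a Ptprc molecule left fibroblast collagen at 20850 and 21412 CPM and smooth muscle collagen at 7039 and 7119. Without those cells 9 members were called higher in fibroblasts, 8 of the 11 and Col5a2, while Col5a1, Col5a3 and Col6a6 were lost. Col18a1 was still the one called in smooth muscle.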

How the data were processed

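For every cell and gene the deposited values are counts of molecules, each counted once by its unique molecular identifier, in 1 table per tag. Per the file headers, the authors made these counts with the BD Rhapsody WTA pipeline 1.11.1 on GRCm38 with GENCODE release M19. Reads in introns were counted, and refined calling chose the cells. All values are whole numbers. Counting by strand and across near-identical genes is not given in the sources used here. Only the names of the deposited tables tie tags to genotypes. Doublets were not called.

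Cells with more than 25% of molecules from mt- genes were removed (56 and 31), and the others gated by markers. Counts were summed over a gate and divided by its molecules. Ratios carry a pseudocount of 0.5 molecule. A gene was compared with at least 20 molecules and called at 2-fold. Intervals are exact (Poisson for sums, Clopper-Pearson for shares, conditional for ratios) at 95%. The functions were tested on simulated data. Cells of 1 pool are not replicates, so no test was made.

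The members and lists were chosen with earlier results of these data known. The 12 members with the most molecules over both stromal gates are given in full, the others with at least 20 by value and the rest by count. From each pathway list the genes with most molecules and those called are named. Positions come from GENCODE release M21 and upstream sequences from RefSeq, both on GRCm38. Python 3.11.15 with numpy, pandas and scipy 1.17.1 was used. What the viral vector given to all mice carries is not reported here.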

Additional observations from a re-analysis of the deposited data

How the results depend on the processing

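No paired analysis was possible because the pools compared are 1 each and carry no replicate numbers. Of 336 recomputed log2 ratios of the 12 most abundant members between fibroblasts and smooth muscle cells, 292 stayed within their counting interval and 0 changed sign past 2-fold. The settings with at least 50 molecules and with no minimum do not enter these ratios. Their values among the 292 could not move and say nothing on stability. Of 48 places per kb, 28 matched those of undivided molecules. The removal of cells with cartilage markers, the removal of the highest cell from immune gates and the immune ratio with its median set to 0 were chosen after seeing the data.

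Fibroblast collagen, 20973 and 20303 CPM, was 17991 and 18741 with markers counted from 1 molecule, 21422 and 20724 divided by molecules other than collagen, 19539 and 19175 with cells weighed equally, and 20077 and 19390 without the highest cell. It was 19156 with a lead of 1 marker in the pool labelled wild-type. In the pool labelled Saa3-/- it was 21412 without cells with a Ptprc molecule and 19635 without cells with cartilage markers. Smooth muscle collagen, 8055 and 7652, was 7426 and 9473 with markers from 1 molecule, 7274 and 7381 with cells weighed equally and 7039 and 7119 without cells with Ptprc. It was 8922 with a lead of 1 marker in the pool labelled Saa3-/- and 7605 without the highest cell in the pool labelled wild-type.

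The count of members higher in fibroblasts, 11, was 6 with markers from 1 molecule (Col4a4, Col5a1, Col5a3, Col6a1 and Col6a2 lost), 7 with at least 50 molecules (Col4a4, Col5a3, Col6a6 and Col16a1 not compared), 9 with cells weighed equally (Col4a4 and Col5a1 lost) and 10 with the median set to 0 (Col5a1 lost). It stayed 11 with a lead of 1 marker, with Col12a1 and Col8a1 in place of Col5a1 and Col6a2, and without the highest cell, with Col15a1 in place of Col5a1. The count higher in smooth muscle, 1, was 2 with markers from 1 molecule, which added Col4a2. Shares of all genes called were not computed under these settings. Between pools, the 3 members called in fibroblasts became 1 with at least 50 molecules and 12 with no minimum. The 1 called in smooth muscle, Col8a1, became 2 with markers from 1 molecule (Col2a1 and Col6a3, with Col8a1 lost) or a lead of 1 marker (Col6a3 added), 12 with no minimum, and 0 with cells weighed equally, without cells with Ptprc or without the highest cell. The summed log2 ratio in fibroblasts, -0.05, was 0.059 with markers from 1 molecule, 0.11 with a lead of 1 marker, 0.038 without cells with Ptprc and -0.10 without cells with cartilage markers. In smooth muscle cells, -0.07 became 0.35, 0.16 and 0.016 under the first 3 of these settings, 0.021 with cells weighed equally and -0.011 without the highest cell. The sign of both sums thus depended on the choice of cells, and in smooth muscle cells also on their weight.

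Macrophage collagen in the pool labelled wild-type, 1568, was 900.0 with markers from 1 molecule, 1239 with cells weighed equally, 1505 with a lead of 1 marker and 899.6 without the cell with cartilage markers. That cell was also the highest. In the pool labelled Saa3-/- the 894 became 1099 with a lead of 1 marker. T and B cells, 852 and 1057, were 940 with cells weighed equally in the pool labelled wild-type, and 1180 with 4 of 6 markers and 835 without the highest cell in the other. Thinning took the share of T cells with Col1a2 from 55.5% and 53.8% to 31.9% and 26.6%, that of macrophages with Col14a1 from 49.0% and 39.1% to 19.1% and 18.8%, and that of T cells with Col14a1 from 15.3% and 17.2% to 5.93% and 8.88%. With 4 of 6 markers, 62.6% of T cells of the pool labelled Saa3-/- had Col1a2. Depth limits the members under 20 molecules. The cause of these shifts was not tested.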
